A study of Mus musculus with 3 samples.

Results

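The Snail, Zeb and Twist repressors and their E-protein partners were followed in sorted progeny of mouse embryonic stem cells in which Snail can be switched on. The 10 genes (Snai1, Snai2, Zeb1, Zeb2, Twist1, Twist2, Tcf3, Tcf4, Tcf12 and Prrx1) were chosen by name as transcription factors of epithelial to mesenchymal transition and their dimer partners, out of 18193 genes with a probe set of their own. These genes and the gene lists below were chosen with earlier results of these data known. Their counts therefore describe these arrays and are no independent support. The 10 genes had 34 probe sets that carry 1 gene symbol. Of these, 28 reached 25.6 intensity units on at least 1 array, which is the 40th percentile of the whole table and is called the floor here, and each of the 10 genes had at least 1 such probe set.

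The cells were A2.snail embryonic stem cells, a mouse line that expresses Snail when doxycycline is added, and all 3 groups came from embryoid bodies grown to day 3 in medium with serum and DKK1, a secreted inhibitor of Wnt signalling. One group was untreated Flk1- cells, with 0 ng/mL doxycycline. The others were Flk1- and Flk1+ cells of a culture that received 250 ng/mL doxycycline on day 2, named Snail-induced Flk1- and Snail-induced Flk1+ here. Flk1, encoded by Kdr, is the VEGF receptor that marks mesoderm with endothelial and blood potential. There was 1 Affymetrix array per group, so no difference below has a replicate check, an error or a p-value, and the number of arrays limits the precision. Untreated Flk1+ cells, and doxycycline-treated cells without the Snail transgene, were not analysed here. Induction is therefore not separated from doxycycline itself, and the Flk1+ array has no uninduced counterpart.

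Snail proteins are zinc finger repressors that bind E-box sequences in epithelial promoters, among them that of the E-cadherin gene, and recruit chromatin-modifying corepressors. Zeb factors combine zinc fingers with a homeodomain and repress an overlapping set of genes. Twist proteins are basic helix-loop-helix factors that bind DNA mostly as dimers with an E protein, a family encoded by Tcf3, Tcf4 and Tcf12. In the gastrulating embryo Snail is needed for epiblast cells to leave the epithelium as mesoderm.

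Snail recognises the letters CAGGTG, which read CACCTG on the opposite strand. The proximal promoters of Snai1 and of both Twist genes are printed because Snai1 is the induced factor, and because the Twist genes were higher after induction and have 1 start each in the table. The sequences are RefSeq's, build GRCm38.p6, and cover the 250 bases before the annotated start, 5′ to 3′ on the gene's strand, with E-box matches in capitals. Snai1 lies at chr2:167537945-167538194, Twist1 at chr12:33957421-33957670 and Twist2 at chr1:91801211-91801460, all on the plus strand.

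Snai1: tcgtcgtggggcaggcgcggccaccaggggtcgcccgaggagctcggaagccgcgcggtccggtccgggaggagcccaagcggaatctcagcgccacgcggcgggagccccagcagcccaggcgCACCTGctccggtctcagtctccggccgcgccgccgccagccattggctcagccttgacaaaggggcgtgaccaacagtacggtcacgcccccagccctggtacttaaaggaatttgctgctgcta

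Twist1: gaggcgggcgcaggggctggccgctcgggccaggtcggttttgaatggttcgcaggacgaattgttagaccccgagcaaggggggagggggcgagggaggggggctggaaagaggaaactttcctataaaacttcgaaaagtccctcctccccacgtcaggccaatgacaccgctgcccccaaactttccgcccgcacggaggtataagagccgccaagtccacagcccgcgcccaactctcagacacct

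Twist2: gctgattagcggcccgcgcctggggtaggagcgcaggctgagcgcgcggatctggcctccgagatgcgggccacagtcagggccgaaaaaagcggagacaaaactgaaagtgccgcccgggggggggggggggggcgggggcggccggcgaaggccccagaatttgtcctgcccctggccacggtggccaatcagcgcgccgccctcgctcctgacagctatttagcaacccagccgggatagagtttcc

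The Snai1 window held 1 CACCTG, from 126 to 121 bases before the start. Neither Twist window held a match to any of 5 E-box forms searched on both strands. Of 32851 windows of the same length in the table, CAGGTG was in 17.2%, CAGATG in 14.4%, CAGCTG in 13.0%, CATATG in 3.46% and CACGTG in 6.02%. In all, 12 windows of 7 of the 10 genes were searched. CAGGTG was found in the Snai1 window alone among them, and CAGCTG in 1 of the Tcf12 windows. Snai2, Zeb1 and Tcf4 were not searched. A match is a description of letters, and the absence of one says nothing about sites outside these windows.

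Values are the intensities deposited by the authors, on a linear scale. Differences were taken on log2(intensity + 9.53), with an offset at the 20th percentile of the table, and folds are read from that scale, which understates differences of dim genes. A fold against a value below the floor is a bound, written as "at least". It is the brighter intensity over the floor itself, without the offset. Such a bound can exceed the fold on the log2 scale, so bounds are not to be ranked against folds. Where a gene had several probe sets, the one with the highest mean stands for the gene. Counts of genes or probe sets past 2-fold were made on the log2 scale with the readings as given, also where one lay under the floor; beside a count that differs, the number whose fold or bound itself reached 2-fold is given as the count by bound.

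**Figure D1:**
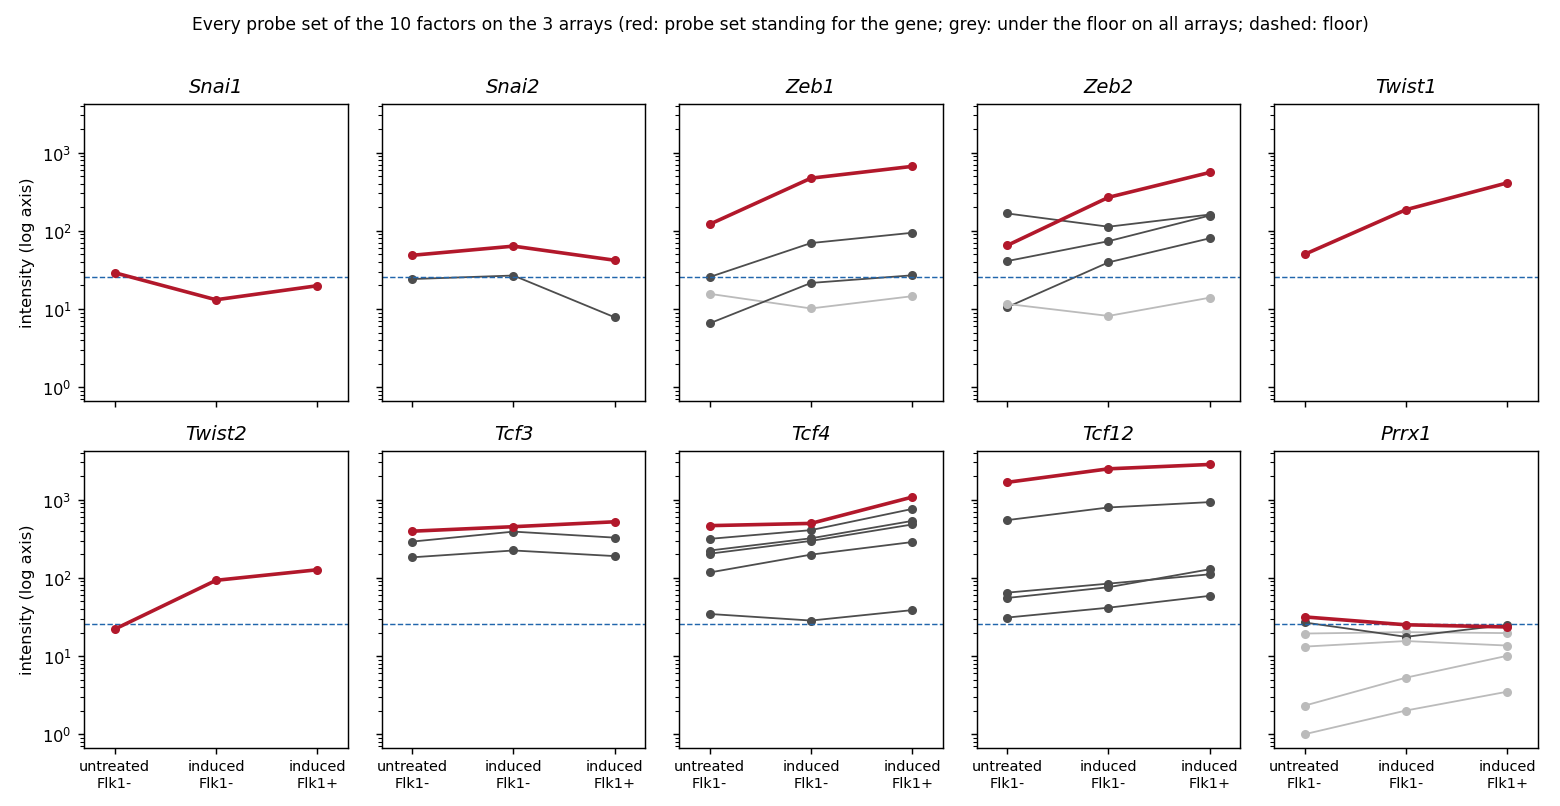
Intensity of every probe set (log axis) of the 10 factors on the 3 arrays, 1 line per probe set; the red line stands for the gene, grey lines lay under the dashed floor of 25.6 on all arrays. By the red lines, Zeb1, Zeb2, Twist1 and Twist2 step up from untreated to Snail-induced Flk1- cells and are highest in Snail-induced Flk1+ cells. The Zeb2 probe set at 167, 113 and 161 steps down instead. Snai1 and Prrx1 stay near or under the floor.

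Snai1 itself was read by a single probe set, at 29.1 in the untreated array, 13.1 in the induced Flk1- array and 19.8 in the induced Flk1+ array, the order in which 3 readings are given from here on. Only the untreated array lay above the floor, so the induced gene was not seen to be higher in either array of the doxycycline culture. No label says whether this probe set reads transcripts of the transgene, so it checks nothing about the induction. The labels of the sort are checked by Kdr, which gave 10.5, 9.73 and 404.

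Snai2, which encodes the related repressor Slug, did not follow the pattern of the Zeb and Twist genes. Its brighter probe set gave 48.6, 63.7 and 42.0, with the Flk1+ array the lowest. Its other probe set gave 24.2, 26.8 and 7.82, above the floor in Snail-induced Flk1- cells only. Both probe sets were thus highest in the Snail-induced Flk1- array, by 1.26-fold and by at least 1.05-fold over the untreated array, and neither difference reached 2-fold.

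Among the relatives of these genes, Snai3, the remaining Snail gene, read 71.1, 35.5 and 46.7. Scrt1, a related neural zinc finger gene, read 102, 108 and 140, and its paralog Scrt2 read 11.1, 30.2 and 35.7. On the log2 scale with the offset, none of these 3 reached 2-fold with induction or between the induced sorts. With no offset, Snai3 was past 2-fold downward and Scrt2 upward with induction, against 3.78% of genes lower and 4.36% higher.

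Zeb1 and Zeb2, the zinc finger and homeodomain repressors, were both higher in the induced arrays by the probe set standing for the gene. Zeb1 gave 121, 471 and 667. It was 3.68-fold higher in the first step and 1.41-fold higher in the second, so most of its difference lay between the untreated and the induced array of Flk1- cells. A second Zeb1 probe set gave 25.6, 69.7 and 94.4, or 2.25-fold and 1.31-fold. The third read 6.55, 21.5 and 27.0, reaching the floor only in Flk1+ cells, and the fourth lay under it on all arrays.

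Zeb2 gave 64.9, 268 and 557, which is 3.73-fold higher with induction and 2.04-fold higher again in Flk1+ cells. A pair of its other probe sets differed the same way, one from 10.5 to 39.5 and 80.2, the other from 41.0 to 73.6 and 157. The next brightest probe set did not: it read 167, 113 and 161, 1.44-fold lower with induction and level with the untreated array in Flk1+ cells. The fifth probe set lay under the floor throughout. Where these probe sets lie within the Zeb2 transcripts was not analysed here.

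Twist1 and Twist2, the helix-loop-helix factors of mesoderm and mesenchyme, each had 1 probe set. Twist1 gave 49.9, 186 and 410, 3.29-fold higher with induction and 2.15-fold higher in Flk1+ than in Flk1- cells of the induced culture. Twist2 gave 22.1, 93.0 and 127, at least 3.64-fold higher with induction and 1.33-fold higher in Flk1+ cells. On the log2 scale with the offset, the first step of Twist2 was 1.70 and that of Twist1 1.72. Zeb2 and Twist1 therefore passed 2-fold at both steps, and Zeb1 and Twist2 at the first step alone; with single arrays it was not tested whether the second steps differ between these genes. By the probe set standing for the gene, all 4 genes were lowest in the untreated and highest in the Flk1+ array.

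Tcf3, Tcf4 and Tcf12 encode the E proteins with which Twist factors dimerise. Tcf12 gave 1666, 2480 and 2820, 1.49-fold and then 1.14-fold higher. All 5 Tcf12 probe sets stood in this order, with the first step between 1.26-fold and 1.49-fold and the second between 1.14-fold and 1.62-fold. From untreated to Flk1+ cells they were 1.63-fold to 2.13-fold apart, and 1 of the 5 passed 2-fold.

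By its brightest probe set, Tcf4 differed mainly in Flk1+ cells. This probe set gave 465, 497 and 1079, 1.07-fold and then 2.15-fold higher, and was the only 1 of 6 past 2-fold at the second step. The suffix _x_at of this probe set marks probes that can read other transcripts too, and the next brightest probe set gave 315, 408 and 761, 1.28-fold and 1.85-fold higher, under 2-fold at the second step. The first step of 1.07-fold turned to a log2 difference of -0.0045 when each array was centred on its median, and to -0.00084 with quantile normalisation. From untreated to Flk1+ cells, 5 of the 6 Tcf4 probe sets lay between 2.29-fold and 2.37-fold higher; the sixth, 34.5, 28.4 and 38.7, stood close to the floor. Another of these 5 gave 117, 198 and 287, 1.64-fold and then 1.43-fold higher, so its larger step was the first. The remaining ones were 1.42-fold and then 1.65-fold higher, and 1.44-fold and then 1.60-fold. These 5 probe sets thus read nearly the same total difference while dividing it differently between the 2 steps.

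Tcf3 gave 395, 451 and 521 by its brightest probe set. The others gave 291, 390 and 327, and 183, 224 and 190, highest in the Snail-induced Flk1- array. The first step was upward in all 3 probe sets, by 1.14-fold to 1.33-fold, and the second step had no common direction. No Tcf3 probe set reached 2-fold in any comparison.

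Prrx1, a homeobox gene of limb and craniofacial mesenchyme that drives epithelial to mesenchymal transition, stood near or under the floor. Its brightest probe set read 31.7, 25.1 and 23.5, another read 26.9, 17.6 and 25.1, and 4 of its 6 probe sets lay under the floor on all arrays. Its paralog Prrx2 read 62.7, 190 and 414, 2.76-fold and 2.13-fold higher at the 2 steps.

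**Figure D2:**
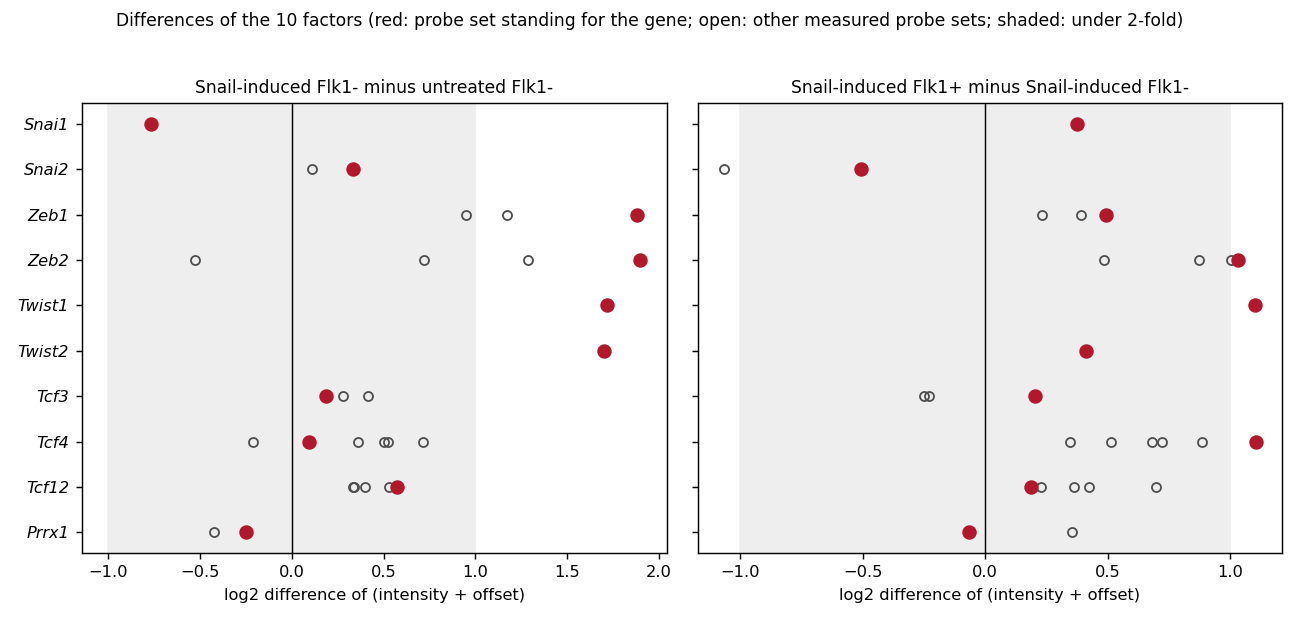
Log2 difference of each factor between Snail-induced and untreated Flk1- cells (left) and between Flk1+ and Flk1- cells of the induced culture (right); red points stand for the gene, open points are its other measured probe sets, and shading covers differences under 2-fold. Zeb1, Zeb2, Twist1 and Twist2 lie between 1.70 and 1.90 on the left, and Zeb2, Twist1 and Tcf4 between 1.03 and 1.10 on the right.

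In the comparison of Snail-induced with untreated Flk1- cells, 4 of the 10 members were at least 2-fold higher, 0 were at least 2-fold lower and 6 were neither, against 2.95% of 13969 measured genes higher and 2.03% lower. By bound the members' counts were the same, and the shares of all genes 2.46% and 1.45%. The median log2 difference of the members was 0.45, and that of all measured genes 0.04. Zeb2, Zeb1 and Twist1 had 58, 62 and 89 measured genes, respectively, with a larger difference on the log2 scale, and Twist2, under the floor before induction, is not placed. Among the members' 28 measured probe sets 6 were past 2-fold upward, against 2.82% of all measured probe sets. By bound it was 5, against 2.12%, since the Zeb2 probe set that began at 10.5 has a bound of 1.54-fold. When each array was centred on its median, the 4 genes stayed past 2-fold, while the shares over all genes became 2.25% higher and 2.85% lower. With the measured genes divided into 4 equal classes from the lowest to the highest mean level, 8.22%, 7.27%, 3.49% and 0.916% passed 2-fold in either direction. In class 2, which held Zeb2, Twist1 and Twist2, 5.01% of genes were higher, and in class 3, which held Zeb1, 2.46%.

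Markers of feeder fibroblasts, which also express Zeb and Twist genes, were read beside this comparison. Of 6 measured markers out of 8 listed, 3 were at least 2-fold higher, against 2.95% of all measured genes: Col3a1, Pdgfrb and Dcn. Col1a2 was 1.19-fold higher, Thy1 read 159 and 158, and Lum was lower by at least 1.30-fold. The summed intensity of the 8 was 479 before and 893 after induction, with Col1a1 and Postn under the floor on all arrays. Col1a1, Col1a2, Col3a1 and Pdgfrb also stand on the list of mesenchymal genes read below. The part of feeder fibroblasts in the result was not tested. In RNA from sorted populations, a change in the number of expressing cells and a change in RNA per cell cannot be told apart.

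Between Flk1+ and Flk1- cells of the induced culture, 3 of the 10 members were at least 2-fold higher, namely Twist1, Tcf4 and Zeb2, and 0 were lower, against 4.85% of measured genes higher and 4.89% lower. The members' median was 0.39, and that of all measured genes 0.00053. By probe set, 4 of 28 were past 2-fold upward, by bound too, against 4.78% of all, or 3.76% by bound. The dimmer Snai2 probe set was past 2-fold downward on the log2 scale, but its bound was 1.05-fold. These second-step differences of Zeb2, Twist1 and Tcf4, at 2.04-fold to 2.15-fold, lay just past the threshold, and 633, 569 and 566 genes had larger ones on the log2 scale. All 8 endothelial markers read beside them were past 2-fold upward in Flk1+ cells, 6 of them by bound (not Pecam1 and Tie1, at least 1.75-fold and 1.67-fold), their summed intensity being 191 in Flk1- and 2914 in Flk1+ cells. Of the 8, which include the sorted gene Kdr, 2 reached the floor in Flk1- cells. Of 6 pluripotency markers 5 were at least 2-fold lower, summing to 24118 and 9122. Whether the factors differed within one kind of cell or with the makeup of the sort was not tested.

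From untreated Flk1- to Snail-induced Flk1+ cells, a comparison that shares arrays with both others and is their sum on the log scale, 5 of the 10 members were at least 2-fold higher and 0 lower, against 8.1% of genes higher and 6.41% lower. Zeb2 was 7.62-fold, Twist1 7.06-fold, Zeb1 5.18-fold, Twist2 at least 4.97-fold and Tcf4 2.29-fold higher. By probe set 14 of 28 were past 2-fold upward, against 8.21% of all, and 13 by bound, against 7.15%. The members' median was 0.98, and that of all measured genes 0.015.

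E proteins are held in check by Id proteins, helix-loop-helix factors that lack a DNA binding region. All 4 Id genes were higher at both steps. Id1 read 169, 451 and 1802, and Id4 read 122, 316 and 766, both past 2-fold at each step. Id2, at 670, 831 and 2458, and Id3, at 440, 687 and 2272, were under 2-fold at the first step and 2.93-fold and 3.27-fold higher at the second. The list median was 0.97 at the first step, with 2 of 4 genes past 2-fold, and 1.63 at the second, with 4 of 4. Over all measured genes 2.95% and 4.85% were higher. The first-step count was 1 with the second brightest probe set, against 2.71% of genes, and 0 at a 3-fold threshold, against 0.823%. Id genes are known targets of BMP signalling, which was not measured here.

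The tissue-restricted helix-loop-helix factors that pair with E proteins did not move as a group. Of 17 measured genes out of 26 listed, 0 passed 2-fold with induction, against 4.98% of all measured genes in either direction. The list median was -0.27. Between the induced sorts, 4 passed 2-fold upward and 3 downward, 1 of these 3 by bound (median 0.38). Over all measured genes 4.85% were higher and 4.89% lower, or 4.07% and 4.12% by bound. Tal1, a factor required for blood and endothelial precursors, read 61.2, 67.5 and 960, 12.6-fold higher in Flk1+ cells. Its relatives Lyl1 and Tal2 were 6.43-fold and 2.82-fold higher, and Neurog1 2.07-fold. Neurod1 was lower by at least 2.55-fold, and Msc and Atoh1 lay under the floor in Flk1+ cells, against 34.2 and 31.3 in Flk1- cells, so that their bounds were 1.34-fold and 1.23-fold. The mesoderm factors Mesp1, at 30.3, 18.1 and 32.5, and Hand1, at 72.2, 53.8 and 72.6, were not past 2-fold at either step.

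Corepressors through which Snail and Zeb proteins act were measured at nearly level intensities. Of 18 measured genes 0 passed 2-fold at the first or the second step, with medians of 0.10 and 0.12. Over all measured genes 4.98% and 9.74% passed in either direction. In the class of highest mean level it was 0.916% and 3.87%. A count of 0 in 18 therefore does not set this list apart. Hdac1 read 5231, 5044 and 5190, and Kdm1a, a histone demethylase that Snail recruits, read 4030, 4277 and 4673. Ctbp2, a corepressor of Zeb factors, read 4386, 3743 and 3596. Rcor1, a partner of Kdm1a, was the member with the largest difference, at 743, 979 and 1733. It was the only one past 2-fold from untreated to Flk1+ cells, by 2.31-fold, where 8.1% of all measured genes were higher.

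Of 18 measured regulators of Snail protein stability, 0 passed 2-fold with induction (median 0.17) and 1 between the induced sorts (median 0.11). That gene was Lats2, a Hippo pathway kinase, at 84.3, 165 and 446. Over all measured genes 4.98% and 9.74% passed in either direction, so these counts do not set the list apart. Gsk3b, the kinase that marks Snail for degradation, read 601, 734 and 1318, under 2-fold at each step. Fbxl14, a ubiquitin ligase subunit for Snail, read 283, 238 and 231.

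Other transcription factors linked to epithelial to mesenchymal transition included 5 of 12 measured genes that were past 2-fold upward with induction and 0 downward (median 0.51). Over all measured genes 2.95% were higher and 2.03% lower. Ets1 read 117, 758 and 3106, and Foxc1, a forkhead factor of paraxial mesoderm and vessels, read 15.9, 90.2 and 681. Six2, Gsc and Sox9 were higher by 2.90-fold, at least 3.60-fold and at least 2.09-fold. Between the induced sorts 6 of 12 were past 2-fold upward, 4 by bound (not Foxf2 and Tbx3, at least 1.81-fold and 1.39-fold), and 0 downward (median 0.84). Over all measured genes 4.85% were higher, or 4.07% by bound, and 4.89% lower. Hmga2, a chromatin protein that activates Snail and Twist genes, was among the 6, at 1946, 3514 and 7432. Sox9 read 53.3 in Flk1- and 28.0 in Flk1+ cells, under 2-fold.

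Among 19 measured signals and factors known to raise these genes, 3 passed 2-fold upward with induction and 0 downward (median 0.18). Over all measured genes 2.95% were higher and 2.03% lower. By bound the list had Tgfbr2 alone, since Tgfb3 and Bmp2 were higher by at least 1.87-fold and 1.41-fold, against 2.46% of all genes. Centring each array on its median also left 1, against 2.25%, so this count does not set the list apart. The list had 5 genes higher and 4 lower between the induced sorts (median 0.21), against 4.85% and 4.89% of all measured genes. Tgfbr2, a receptor for transforming growth factor beta, read 44.5, 121 and 587, past 2-fold at both steps, and Bmp2 read 13.1, 36.1 and 176. The ligand genes Tgfb1 and Tgfb2 read 49.9, 39.8 and 168, and 46.2, 53.3 and 177, higher in Flk1+ than in Flk1- cells of the induced culture by 3.60-fold and 2.97-fold. Fgf4 and Fgf8, by their brightest probe sets, were lower in Flk1+ cells by at least 12.8-fold and 2.25-fold, and Nodal read 1456, 1436 and 698.

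Epithelial genes known to be repressed by Snail or Zeb were read as a list of 26 measured genes. Mesenchymal genes that rise in the transition were read as one of 19. Whether the factors act on any of them in these cells was not tested. With induction 16 of these 26 epithelial genes passed 2-fold downward and 0 upward, and the median was -1.11. Over all measured genes 2.03% were lower and 2.95% higher. Cdh1, the E-cadherin gene and a textbook target of Snail and Zeb repressors, read 6338, 3086 and 624, so that it was lower by 2.05-fold at the first step and by 4.89-fold at the second. Esrp1, a splicing factor gene repressed by Zeb1, read 1215, 356 and 38.3. Esrp2, its paralog, read 76.5, 61.7 and 56.4, under 2-fold at both steps. Ovol2 and Grhl2, which encode factors that repress Zeb1, read 107, 55.9 and 73.7, and 372, 216 and 71.5.

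Between the induced sorts 11 of the 26 epithelial genes passed 2-fold downward, 10 of them by bound (not Prss8, at least 1.68-fold), and 0 upward (median -0.81). Over all measured genes 4.89% were lower there, or 4.12% by bound. Of the mesenchymal genes, 8 of 19 passed 2-fold upward and 0 downward with induction (median 0.78), against 2.95% of all measured genes higher. Between the sorts 4 of 19 were higher and 0 lower (median 0.67), against 4.85% higher. The cadherin gene Cdh2, often exchanged for Cdh1 in this transition, read 539, 797 and 1249, under 2-fold at each step, and Vim, the vimentin gene, read 3354, 5233 and 9821.

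**Figure D3:**
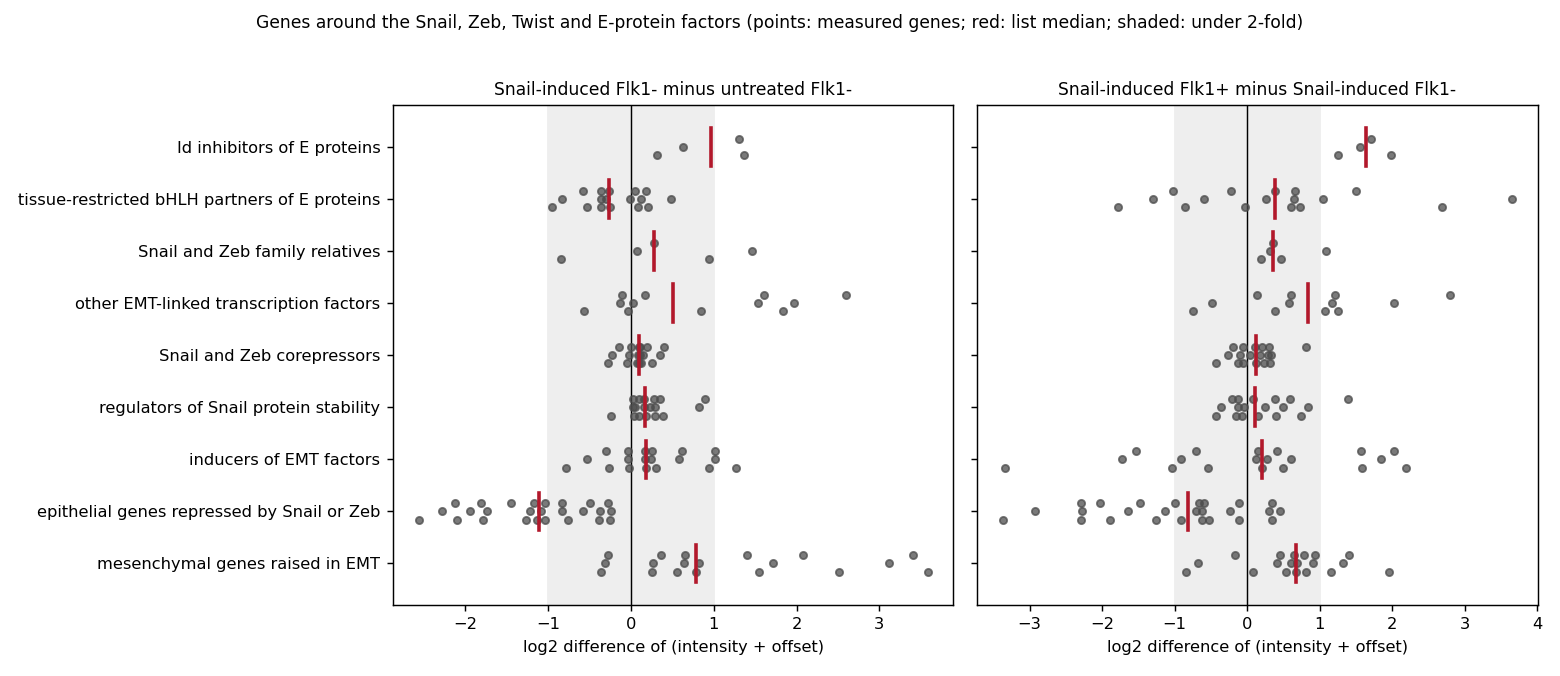
Log2 differences of the measured genes of 9 lists around the factors, with induction in Flk1- cells (left) and between the induced sorts (right); points are genes, red bars list medians and shading differences under 2-fold. Id genes lie to the right in both panels (medians 0.97 and 1.63), corepressors lie near 0 (0.10 and 0.12), and epithelial genes lie to the left (-1.11 and -0.81).

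Genes with the most similar pattern were sought by the distance between the pair of log2 differences, over the 3 arrays, for the 5 members past 2-fold in any comparison. Where a reading lay under the floor the distance depends on the offset, and none is given. Nearest to Zeb2 were Gap43, a growth cone protein gene, Frzb, a secreted Wnt antagonist gene, and the laminin gene Lama4, each under the floor on at least 1 array. Gap43 read 24.7, 119 and 251. Nearest to Twist1 were Flrt3, at a distance of 0.062, and Nrgn and Heph, both under the floor on at least 1 array. Nearest to Zeb1 were Asxl3, Lix1l and Ttc28, at 0.088, 0.10 and 0.13. Twist2, itself under the floor in the untreated array, had Megf10, Ttc28 and Zfp423 nearest. Among the members, by the probe sets standing for the genes, Zeb2 and Twist1 lay 0.19 apart, and Zeb1 and Zeb2 0.54. These distances depend on the probe set. The next brightest Zeb2 probe set had log2 differences of -0.53 and 0.48 at the 2 steps, against 1.90 and 1.03 for the one used. The second Zeb1 probe set had 1.17 and 0.39, against 1.88 and 0.49. Which member lies nearest to Zeb2 is therefore not settled. Tcf4, by its _x_at probe set, had Aim2, under the floor on at least 1 array, Ripor1 and Myo18a nearest, the latter both at 0.034. That probe set had log2 differences of 0.093 and 1.10 at the 2 steps, and the next brightest Tcf4 probe set 0.36 and 0.89. Neighbours of the other Tcf4 probe sets were not sought. A likeness over 3 arrays rests on 2 differences per gene and is a description of these arrays.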

How the data were processed

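Total RNA of sorted cells was labelled and hybridised to Affymetrix arrays, 1 per group, by the standard Affymetrix procedure per the labels' protocols. The deposited values are linear intensities between 0.5 and 18191, with 1 value for each probe set on each array. How the authors summarised and scaled them, and with which software, is not given in the sources used. Array medians were 42.7, 42.4 and 44.6.

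Of 45037 probe sets, 34945 had 1 symbol in the platform annotation, 932 several and 9160 none. Those with 1 symbol were used, with symbols updated by Entrez ID (204 unmatched, kept as annotated). A gene is its probe set with the highest mean log2(intensity + 9.53) and is measured where at or above 25.6 on at least 1 array (13969 genes). Differences of at least 2-fold were counted, with no test. The counting was tested on simulated data in which bright genes alone were changed, by well over 2-fold. That test does not cover dim genes, differences near 2-fold or the spread between cultures. Python 3.11.15, numpy 2.4.6 and pandas 2.3.3 were used.

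Named genes are all members, from each list up to 6 genes of largest difference and up to 2 of opposite sign, and the 3 nearest genes; other list genes were picked after their values were seen. Members and lists were chosen with earlier results of these data known. Alternatives covered scaling, offset, choice of probe set, floor and fold.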

Additional observations from a re-analysis of the deposited data

How the results depend on the processing

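The counts of members past 2-fold rested most on the choice of probe set. With induction, 4 were higher, but 2 with the mean over all probe sets, against 1.89% of the genes measured in that setting. It was 1 with the second brightest probe set, which 7 members have at a measured level, against 2.71%. Between the induced sorts, 3 were higher, but 1 with that mean, 0 with the second probe set and 0 at a 3-fold threshold. The shares of genes higher in these settings were 3.77%, 4.93% and 1.73%. From untreated to Flk1+ cells 5 were higher, but 2 with the second probe set, against 7.98%. No member was lower by the values reported, but 1, Snai1, was with induction at no offset or a 1.5-fold threshold. The shares of genes lower there were 3.78% and 7.82%. Between the sorts 1, Snai2, was lower with its other probe set, which stands for it in the second-probe-set setting and without probe sets of suffix _x_at or _s_at. In these 2 settings 3.90% and 4.94% of genes were lower. Zeb2 reversed by its second probe set, to -0.53 with induction and -0.045 from untreated to Flk1+ cells. Quantile normalisation, median centring, dropping the floor and raising it to the 60th percentile kept the numbers of members higher and lower in the 3 comparisons, as did counting folds by their bound, chosen after seeing the data. At the higher floor 7 of the 10 members were measured. No paired analysis was possible because each group has 1 array. Single arrays leave the spread between cultures unmeasured, and Snai1 and Prrx1 lay too near the floor for their differences to be read.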
